A study of Mus musculus with 36 samples.

Results

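The course of repair in resected mouse ventricle was followed from day 1 to day 7 after surgery in 4 of the 36 heart libraries of the series. The members were chosen by their labels alone: 2 libraries of whole ventricular myocardium taken 7 days after resection of ventricular tissue and 2 taken 1 day after it. They were compared with each other, and their course was set beside that of 2 day 7 and 2 day 1 libraries from sham-operated hearts, which share no library with them. The animals were, per the labels, of the CD-1 background, with no transgene or deletion named. The labels give neither the age at surgery nor the age at collection of the operated animals, so time since surgery and growth of the animal cannot be told apart within the resected hearts. The labels do not say that replicates came from separate animals, so each p-value measures the spread between libraries, which may be technical. That spread was estimated over 16 ventricle libraries together, not over the compared libraries alone. Values are FPKM, a transcript level scaled to transcript length and library size, and differences are given on the log2(FPKM + 1) scale, which understates the change of genes at low levels. Each difference is day 7 minus day 1, with its standard error (SE). Libraries are numbered 1 and 2 within a group, and values are listed in that order.

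In the newborn mouse, resected ventricular muscle is replaced by division of existing cardiomyocytes, and this capacity is lost within days of birth. Over the same days a heart that grows normally exchanges slow skeletal troponin I (Tnni1) for cardiac troponin I (Tnni3), shuts down imprinted fetal growth genes such as Igf2 and Plagl1, and builds the enzymes of mitochondrial energy supply. An injured heart passes through an early phase of inflammation, in which neutrophils and monocytes enter and acute phase genes are induced, and then through a phase in which macrophages clear debris, fibroblasts lay down matrix and vessels regrow. Comparing day 7 with day 1 asks how far these programs had moved in hearts that had lost tissue.

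The tissue label was checked against markers, since 1 label field names cardiomyocytes and another the ventricular myocardium. The 7 of 8 cardiomyocyte markers analysed summed to 15578 to 17142 FPKM at day 7 and 17489 to 19485 FPKM at day 1. Markers of fibroblasts, vessels, epicardium and macrophages were present too, as whole ventricle holds. No T, B or NK cell marker passed the filter on low values. Other features of the libraries touch the results. The 2 day 1 resection libraries differed from each other more than any other ventricle pair, with a root mean square SD of 0.346 (log2) over genes against 0.154 to 0.228 in the other 7 groups. In the day 1 pair 77.5% of genes lay within 0.5 log2 units of each other, against 90.9% in the day 7 pair. Since the tests share their spread with the other ventricle groups, SE and adjusted p can understate the spread of the day 1 resection pair. The day 1 sham libraries held far more injury transcripts than the libraries labelled day 1 resection. Timp1, an inhibitor of metalloproteinases induced by injury, had 8.48 and 10.3 FPKM at day 1 after resection and 43.8 and 46.0 FPKM at day 1 after sham. Groups are called here as labelled. Whether the day 1 labels are right was not tested, and both courses rest on them, the resected one included: Spp1, which encodes osteopontin, had 16.2 and 20.9 FPKM in the day 7 resection libraries, against 11.9 and 8.27 FPKM in the libraries labelled day 1 resection, while those labelled day 1 sham held 89.8 and 101 FPKM. Lung genes were present in the day 7 resection libraries: Sftpc, which encodes surfactant protein C of alveolar cells, had 164 and 83.2 FPKM at day 7, against 0.406 and 0.233 at day 1. Sex-linked genes differed between libraries, with Xist at 23.0 and 0.110 FPKM at day 7, against 53.8 and 85.2 at day 1. The part of these features in the gene differences was not tested.

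In all, 12425 of 36128 gene models were tested, those with at least 1 FPKM in at least 2 of the 4 resected libraries. A gene that reached 1 FPKM on 1 day alone could enter the test only as higher on that day. Outside the lung list this holds at day 7 for Col8a1, Ltbp2, Mmp12, Ms4a7, Gpnmb, Cxcl13, Cd74, H2-Aa and mmu-mir-689-2. It holds at day 1 for Bmp10, Arg1, Serpina3n, Nr4a3 and Hif3a. At an adjusted p under 0.05 (limma, Benjamini-Hochberg), 1928 gene models were higher at day 7 after resection, 15.5% of those tested, and 460 were lower, 3.7%. The replicates did not overlap in 38.3% of tested genes in the higher direction and in 15.4% in the lower. This split depended on the scaling between libraries. The median gene was higher at day 7 by 0.15 (log2) in the deposited values, and 80.7% of the calls were higher. The share was 50.8% under median-of-ratios scaling (1163 higher, 1126 lower) and 53.3% under quantile normalization (1051 higher, 922 lower). Both put the median gene at -0.01. Under all 3 scalings 997 genes were called higher and 458 lower, with no gene called in opposite directions. Lists are therefore read against the 0.15 of all genes, with their counts under the other scalings beside those in the deposited values. The number of calls also rested on the spread borrowed from other libraries: 2388 genes were called when all 16 ventricle libraries shared one estimate, 936 with the 8 operated libraries alone and 78 with the 4 resected libraries alone. It was 840 without day 7 library 1, 1248 without day 7 library 2, 1072 without day 1 library 1 and 3515 without day 1 library 2.

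**Figure D1:**
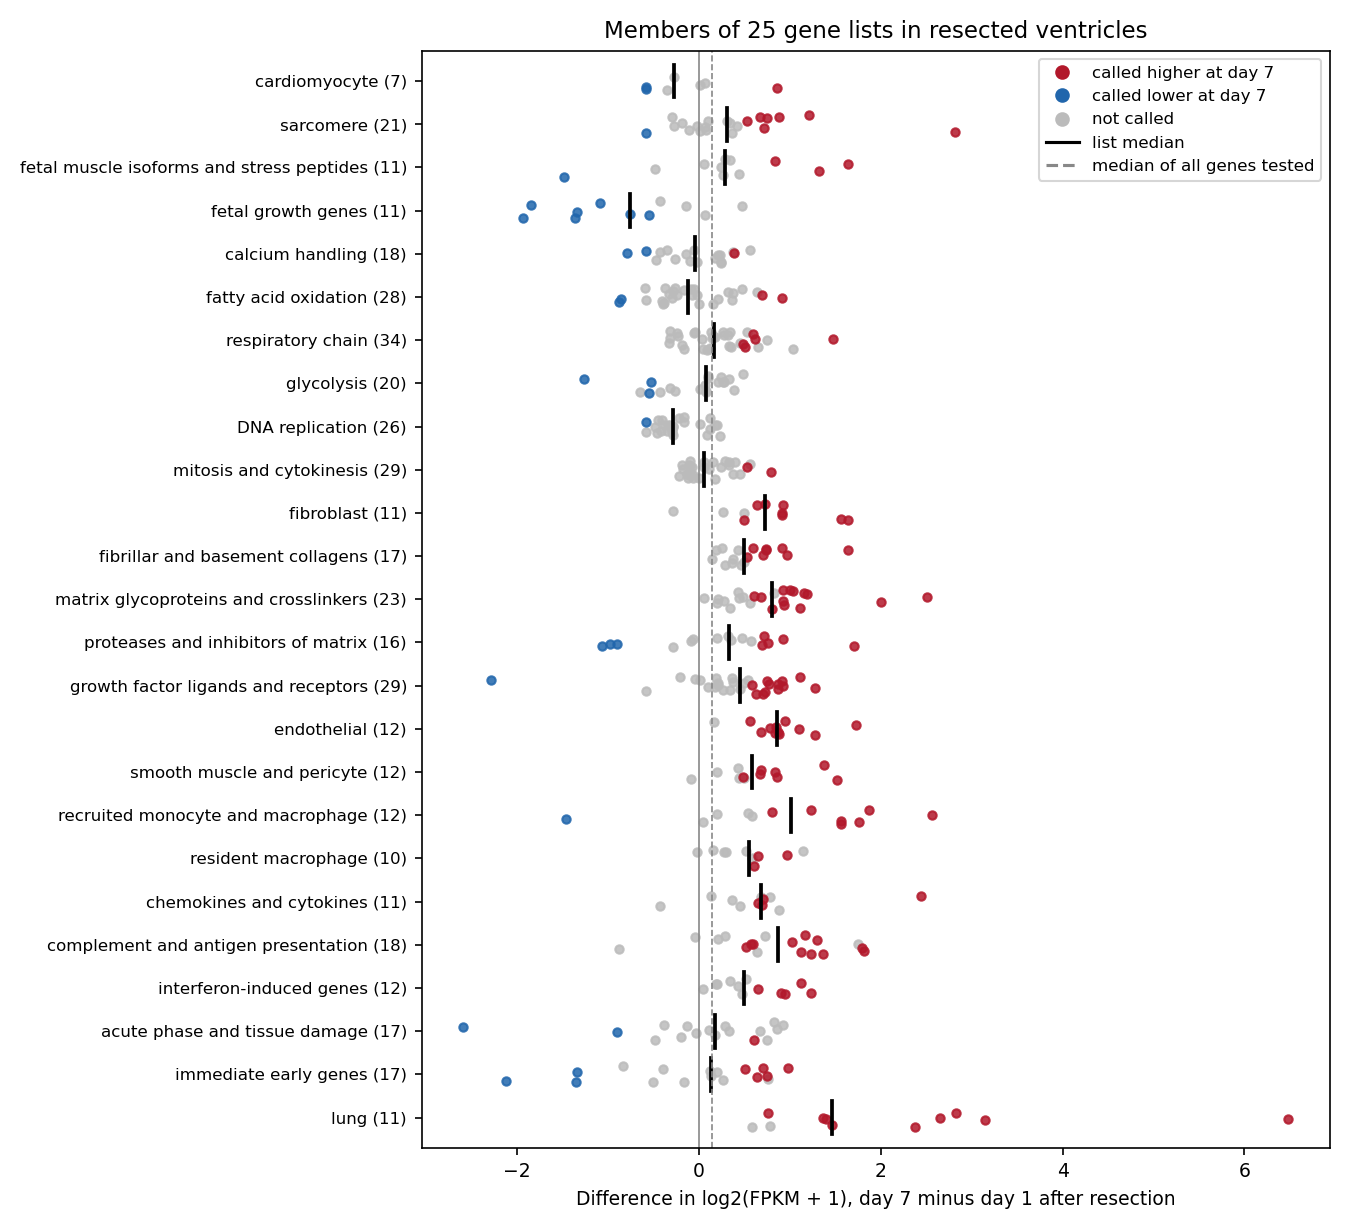
Each point is a tested member of 1 of 25 gene lists (number of tested members in brackets), placed by its difference in log2(FPKM + 1) between day 7 and day 1 after resection. Red points were called higher at day 7, blue points lower and grey points not called. Black bars are list medians, and the dashed line is the median of all genes tested (0.15). Fetal growth genes lie lowest, and the medians of the fibroblast, endothelial, macrophage and lung lists lie above the dashed line.

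The fetal growth genes held the most lower calls of any list in the deposited values and under quantile normalization; under median-of-ratios scaling the DNA replication list, with 10, and the fatty acid oxidation list, with 9, held more. Of 11 tested members, 7 were lower at day 7 and none was higher, with a list median of -0.75 (log2) against 0.15 for all genes. The count was 7 and 7 under median-of-ratios scaling and quantile normalization and 4 to 6 when a resected library was left out. Leaving out a library also removes from the test any gene that reaches 1 FPKM in that library's group alone. Plagl1 (mm9 chr10:12810496-12851500), an imprinted zinc finger regulator of a network of fetal growth genes, had 18.3 and 14.2 FPKM at day 7, against 69.4 and 59.2 at day 1, a difference of -1.93 ± 0.16 SE, adjusted p = 3.42e-05. Igf2, the fetal insulin-like growth factor, had 172 and 155 FPKM at day 7, against 477 and 361 at day 1 (-1.34 ± 0.18 SE, adjusted p = 0.000581). No day 7 library reached a day 1 library for either gene. Cited1, a transcriptional co-regulator of the embryo, had 5.39 and 4.39 FPKM at day 7, against 19.3 and 20.8 at day 1 (-1.84 ± 0.30 SE, adjusted p = 0.00158). Dlk1, an imprinted Notch-family ligand of immature tissue, had 5.20 and 2.55 FPKM at day 7, against 14.8 and 8.14 at day 1 (-1.36 ± 0.28 SE, adjusted p = 0.00606), and its call was lost in 2 of the fits that left out 1 library (at most adjusted p = 0.0565 without day 7 library 2). The day 7 levels of these growth genes lay close to those of unoperated P7 ventricle, which held 19.6 and 18.8 FPKM of Plagl1 and 185 and 188 FPKM of Igf2. The day 1 levels of Plagl1 lay between the 102 and 113 FPKM of P0 and the 33.2 and 44.2 FPKM of P4 ventricle. Those of Igf2 likewise lay between 753 and 579.6 FPKM at P0 and 284 and 328 FPKM at P4. These side-by-side values are not tests: operated and unoperated libraries separated on the first principal component of the 16 ventricle libraries (67.9% of the variance).

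Hey2, Bmp10 and Ppp1r1b were among the other genes called lower. Hey2 (mm9 chr10:30552165-30562589), a Notch target that keeps the compact layer of the ventricle in its embryonic state, had 7.29 and 5.75 FPKM at day 7, against 23.8 and 24.3 at day 1 (-1.74 ± 0.19 SE, adjusted p = 0.000143). Bmp10, a growth factor of the trabecular and later the atrial myocardium, was near 0 at day 7, with 0.119 and 0.0657 FPKM at day 7, against 4.10 and 4.54 at day 1 (-2.28 ± 0.23 SE, adjusted p = 9.04e-05). Ppp1r1b, an inhibitor of protein phosphatase 1 known mainly from neurons, had 1.27 and 1.09 FPKM at day 7, against 8.06 and 9.85 at day 1 (-2.18 ± 0.21 SE, adjusted p = 7.07e-05). In each of the 3 genes the groups were well apart, and the calls of Hey2 and Ppp1r1b held in every fit without 1 library. Bmp10 kept its call without either day 7 library. It was not tested without a day 1 library, so whether its call rests on 1 of those cannot be decided. Nkx2-5, a master transcription factor of cardiomyocytes, went the other way, with 7.13 and 6.67 FPKM at day 7, against 2.86 and 3.90 at day 1 (0.86 ± 0.19 SE, adjusted p = 0.00852); that call was lost in 2 of the fits leaving out 1 library (at most adjusted p = 0.0655 without day 1 library 1).

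Among contractile genes the switch of troponin I was visible on 1 side only. Tnni1 (mm9 chr1:137679641-137707566), the slow skeletal isoform of the fetal heart, had 182 and 124 FPKM at day 7, against 419.7 and 421 at day 1, a difference of -1.48 ± 0.27 SE, adjusted p = 0.00315. Tnni3, the adult cardiac isoform, had 1659 and 1164 FPKM at day 7 and 1248 and 1521 at day 1 and was not called (0.01 ± 0.20 SE, adjusted p = 0.972). Tnni3 was thus about as high at day 1 as at day 7, and its groups overlapped. Its small difference turned negative under both other scalings. Myh7, the fetal beta heavy chain of myosin, had 191 and 128 FPKM at day 7, against 241 and 198 at day 1, apart in all 4 libraries but not called (-0.48 ± 0.20 SE, adjusted p = 0.113) in the deposited scale and called lower under median-of-ratios scaling. Myh6, the adult alpha heavy chain, had 2219 and 1557 FPKM at day 7 and 2256 and 2243 at day 1 (-0.28 ± 0.24 SE, adjusted p = 0.451), and its groups were separated only by a small gap. Xirp2, an actin-binding protein of the intercalated disc and Z-disc, showed the largest increase in the sarcomere list, with 61.0 and 59.9 FPKM at day 7, against 4.93 and 11.8 at day 1 (2.82 ± 0.33 SE, adjusted p = 0.000229). Myl3, the ventricular essential light chain, had 3451 and 2508 FPKM at day 7, against 798 and 2015 at day 1 (1.21 ± 0.33 SE, adjusted p = 0.0228), with day 1 library 1 well below the other 3 libraries. Tnnt2, cardiac troponin T, had 3847 and 3302 FPKM at day 7, against 4968 and 5709 at day 1 (-0.58 ± 0.18 SE, adjusted p = 0.0361). The calls of both were lost when a library was left out: Myl3 (in 2 of 4 fits, at most adjusted p = 0.174 without day 1 library 1) and Tnnt2 (in 4 of 4 fits, at most adjusted p = 0.175 without day 7 library 2). Over the sarcomere list 7 higher and 1 lower of 21 tested members were called, with a median of 0.31, and 2 to 10 were higher when a library was left out. The counts were 4 higher and 2 lower under median-of-ratios scaling and 4 and 0 under quantile normalization.

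Of the stretch and load genes of the muscle, 2 of the 3 described were called. Ankrd1, a stretch-induced ankyrin repeat protein of the Z-disc and nucleus, had 997 and 911 FPKM at day 7, against 322 and 451 at day 1 (1.32 ± 0.34 SE, adjusted p = 0.0188). Nppb, which encodes brain natriuretic peptide, had 473 and 437 FPKM at day 7, against 88.2 and 238 at day 1 (1.64 ± 0.49 SE, adjusted p = 0.0342). Both calls were lost when 1 library was left out: Ankrd1 (in 3 of 4 fits, at most adjusted p = 0.117 without day 1 library 1) and Nppb (in 3 of 4 fits, at most adjusted p = 0.262 without day 1 library 1). Nppa, which encodes atrial natriuretic peptide, had 382 and 469.8 FPKM at day 7 and 230.4 and 517 at day 1, with both day 7 values between the 2 day 1 values, and was not called (0.29 ± 0.50 SE, adjusted p = 0.715). The list of fetal muscle isoforms and stress peptides held 3 higher and 1 lower of 11 tested members called, with a median of 0.29. The counts were 1 higher and 2 lower under median-of-ratios scaling and 2 and 1 under quantile normalization, and 0 to 4 were higher when a library was left out. In the deposited values the lower one was Tnni1. Atrial light chains, which young ventricle still carries, were at lower levels as well. The atrial list they belong to did not move one way, with 3 higher and 3 lower of 11 tested members called. Myl4 had 9.33 and 7.33 FPKM at day 7, against 22.6 and 31.6 at day 1 (-1.58 ± 0.45 SE, adjusted p = 0.0273), a call lost in every fit without 1 library (at most adjusted p = 0.12 without day 7 library 2). Myl7 had 2.10 and 2.19 FPKM at day 7, against 19.6 and 12.9 at day 1 and was not called (-2.43 ± 0.83 SE, adjusted p = 0.0579).

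**Figure D2:**
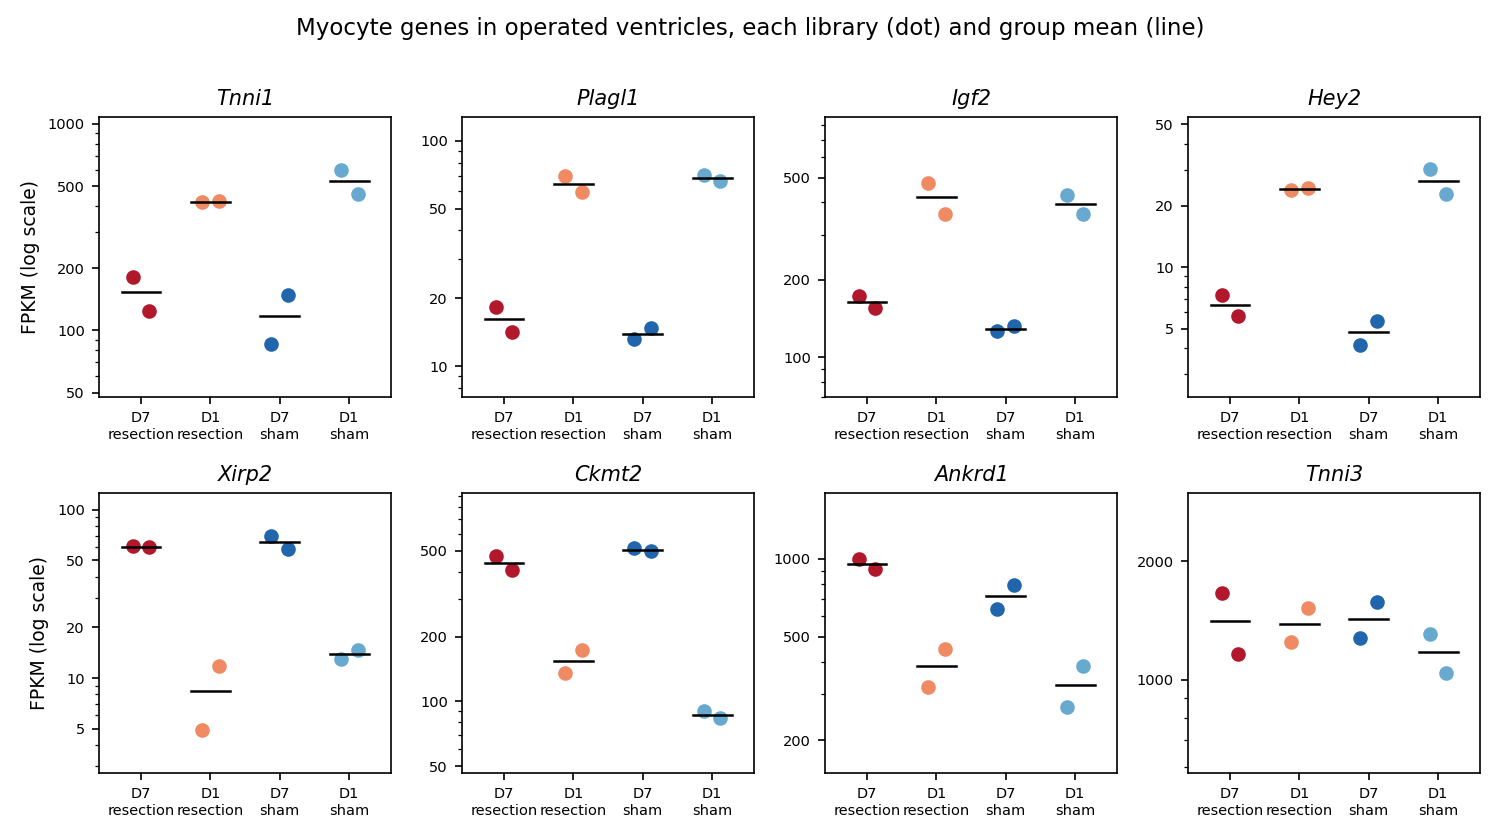
Levels of 8 myocyte genes in FPKM on a log axis in the day 7 resection, day 1 resection, day 7 sham and day 1 sham libraries (2 dots each, line at the group mean). Tnni1, Plagl1, Igf2 and Hey2 were lower and Xirp2, Ckmt2 and Ankrd1 higher in both day 7 resection libraries than in both day 1 resection libraries, while Tnni3 overlapped.

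Calcium handling genes gave 1 higher and 2 lower of 18 tested members, with a median of -0.04. The counts were 0 higher and 4 lower under median-of-ratios scaling and 0 and 5 under quantile normalization. Ryr2, the calcium release channel of the sarcoplasmic reticulum, had 98.9 and 85.2 FPKM at day 7, against 154 and 124 at day 1 (-0.58 ± 0.17 SE, adjusted p = 0.0314). Slc8a1, the sodium-calcium exchanger, had 163 and 108 FPKM at day 7, against 233 and 224 at day 1 (-0.78 ± 0.22 SE, adjusted p = 0.0287). Both were lower in both day 7 libraries, and both calls were lost when 1 library was left out: Ryr2 (in 3 of 4 fits, at most adjusted p = 0.179 without day 1 library 1) and Slc8a1 (in 2 of 4 fits, at most adjusted p = 0.213 without day 7 library 2). Kcnip2, the subunit that sets the transient outward potassium current of the ventricle, was not called in the resected course, with 47.7 and 49.4 FPKM at day 7 and 42.9 and 43.9 at day 1 (0.16 ± 0.24 SE, adjusted p = 0.679).

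Energy genes were called in both directions. Over all genes tested, 15.5% were called higher and 3.7% lower in the deposited values. Under median-of-ratios scaling 1163 of 12425 were higher and 1126 lower. Beside these shares, lower calls were not scarce in the fatty acid oxidation and glycolysis lists. Ckmt2 (mm9 chr13:91992991-92016490), the sarcomeric mitochondrial creatine kinase that couples ATP export to the creatine shuttle, had 474 and 406 FPKM at day 7, against 136 and 174 at day 1, a difference of 1.51 ± 0.17 SE, adjusted p = 0.000222. In unoperated ventricle it held 82.5 and 66.1 FPKM at P0, 274 and 224 FPKM at P4 and 516 and 438 FPKM at P7. In the fatty acid oxidation list 2 higher and 2 lower of 28 tested members were called, with a median of -0.12; the counts were 1 higher and 9 lower under median-of-ratios scaling and 1 and 4 under quantile normalization. Ppargc1a, the coactivator of mitochondrial biogenesis, had 27.4 and 28.7 FPKM at day 7, against 44.6 and 61.5 at day 1 (-0.88 ± 0.21 SE, adjusted p = 0.0118). Acot2, a mitochondrial acyl-CoA thioesterase, had 42.6 and 38.6 FPKM at day 7, against 70.2 and 77.8 at day 1 (-0.85 ± 0.22 SE, adjusted p = 0.0198). Both lay lower in both day 7 libraries. Ech1, by contrast, an auxiliary enzyme of beta-oxidation, was higher, with 222 and 211 FPKM at day 7, against 89.5 and 146 at day 1 (0.91 ± 0.22 SE, adjusted p = 0.0141). The respiratory chain list held 5 higher and 0 lower of 34 tested members, with a median of 0.17, and its higher count was 0 to 13 when a library was left out. The other scalings gave 1 and 1 higher. Its largest change was in Ndufa1, a small complex I subunit, with 499 and 482 FPKM at day 7, against 96.5 and 319 at day 1 (1.48 ± 0.37 SE, adjusted p = 0.0167), where day 1 library 1 lay far below every other library. Cox8b, the muscle form of a cytochrome oxidase subunit, had 142 and 116 FPKM at day 7, against 92.4 and 74.4 at day 1 (0.62 ± 0.16 SE, adjusted p = 0.0199) and lost its call under both other scalings. Calls lost on leaving out 1 library were those of Ppargc1a (in 1 of 4 fits, at most adjusted p = 0.0753 without day 7 library 1), Acot2 (in 3 of 4 fits, at most adjusted p = 0.095 without day 7 library 2), Ech1 (in 3 of 4 fits, at most adjusted p = 0.115 without day 1 library 1), Ndufa1 (in 3 of 4 fits, at most adjusted p = 0.0869 without day 7 library 1) and Cox8b (in 2 of 4 fits, at most adjusted p = 0.164 without day 7 library 1). The glycolysis list held 0 higher and 3 lower of 20 tested members, with 5 and 5 lower under the other scalings and 1 to 4 lower when a library was left out. The ketone and pyruvate list held 0 higher and 1 lower of 11, with 2 and 2 lower under the other scalings. Aldoc, the brain-type aldolase, had 0.829 and 1.25 FPKM at day 7, against 4.86 and 3.04 at day 1 (-1.26 ± 0.23 SE, adjusted p = 0.00311). Ldhb, the heart form of lactate dehydrogenase, had 376 and 361 FPKM at day 7, against 544 and 518 at day 1 (-0.53 ± 0.12 SE, adjusted p = 0.0102). Pdk3, a kinase that switches off pyruvate dehydrogenase, had 11.8 and 10.1 FPKM at day 7, against 17.7 and 23.3 at day 1 (-0.84 ± 0.18 SE, adjusted p = 0.00856). Calls were also lost for Ldhb (in 2 of 4 fits, at most adjusted p = 0.0592 without day 7 library 2) and Pdk3 (in 1 of 4 fits, at most adjusted p = 0.0597 without day 7 library 2).

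Few proliferation genes passed the test. Mki67, the general marker of cycling cells, had 18.0 and 17.0 FPKM at day 7 and 17.7 and 20.1 at day 1 (-0.10 ± 0.28 SE, adjusted p = 0.825). Ccnb1, the cyclin of mitotic entry, had 5.78 and 6.08 FPKM at day 7 and 5.17 and 7.52 at day 1 (-0.07 ± 0.24 SE, adjusted p = 0.876). In both genes the groups overlapped. Of the mitosis and cytokinesis list, 2 higher and 0 lower of 29 tested members were called, with a median of 0.06. Those 2 were Cenpa, the centromeric histone H3 variant, with 34.5 and 30.0 FPKM at day 7, against 12.98 and 25.1 at day 1 (0.80 ± 0.23 SE, adjusted p = 0.0323), and Cdc20, the activator of the anaphase-promoting complex. Cdc20 had 9.61 and 7.43 FPKM at day 7, against 5.42 and 5.69 at day 1 (0.53 ± 0.17 SE, adjusted p = 0.0421). Of the DNA replication list, 0 higher and 1 lower of 26 tested members were called, with a median of -0.29, below that of all genes. The member called was Pola1, the catalytic subunit of polymerase alpha, with 5.87 and 5.24 FPKM at day 7, against 8.91 and 8.61 at day 1 (-0.58 ± 0.19 SE, adjusted p = 0.0461). Under median-of-ratios scaling and quantile normalization 10 and 6 replication genes were called lower. Calls of Cenpa (in 3 of 4 fits, at most adjusted p = 0.265 without day 1 library 1), Cdc20 (in 3 of 4 fits, at most adjusted p = 0.272 without day 7 library 1) and Pola1 (in 4 of 4 fits, at most adjusted p = 0.177 without day 7 library 2) were lost on leaving out a library. Summed over the list, mitotic genes held 359.6 to 426 FPKM at day 7 and 309.9 to 455 FPKM at day 1, against 235 to 264 FPKM in day 7 sham and 226 to 246 FPKM in day 1 sham libraries. Unoperated ventricle held 381 and 375 FPKM at P0, 421 and 554 at P4 and 210 and 292 at P7. Replication genes summed to 261 to 309 FPKM at day 7 and 284 to 409 FPKM at day 1. After sham they summed to 179 to 190 FPKM at day 7 and 229 to 243 FPKM at day 1. These sums were not tested. In whole ventricle these levels cover dividing cells of every type, not cardiomyocytes alone. Cdkn1c, an imprinted inhibitor of cyclin-dependent kinases, had 12.1 and 13.5 FPKM at day 7, against 20.9 and 16.2 at day 1 (-0.49 ± 0.15 SE, adjusted p = 0.0412), a call lost in 3 of the 4 fits without 1 library (at most adjusted p = 0.254 without day 1 library 1).

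Connective tissue genes were higher at day 7 across several lists. Over all genes tested, 15.5% were called higher and 3.7% lower in the deposited values. In bulk tissue, more cells of a type and more RNA per cell cannot be told apart. Of the fibroblast markers 8 higher and 0 lower of 11 tested were called, and the list median was 0.73, where that of all genes was 0.15. The counts were 6 higher and 1 lower under median-of-ratios scaling and 5 and 0 under quantile normalization. Dcn, the small proteoglycan decorin that marks resting fibroblasts, had 291 and 379 FPKM at day 7, against 175 and 172 at day 1 (0.93 ± 0.16 SE, adjusted p = 0.00258). Mfap5, a glycoprotein of elastic microfibrils, had 76.6 and 118 FPKM at day 7, against 22.4 and 44.0 at day 1 (1.57 ± 0.28 SE, adjusted p = 0.00287). Both genes were higher in both day 7 libraries. The collagen list held 8 higher and 0 lower of 17 tested members, with 3 to 8 higher when a library was left out and 5 and 4 under the other scalings. Its largest rise was in Col8a1 (mm9 chr16:57624370-57754850), a short-chain collagen of vessels and remodelling tissue, with 3.94 and 5.35 FPKM at day 7, against 0.698 and 0.900 at day 1 (1.64 ± 0.16 SE, adjusted p = 7.29e-05). Col15a1, of the basement membrane zone of muscle and capillaries, had 45.7 and 53.7 FPKM at day 7, against 27.3 and 22.5 at day 1 (0.97 ± 0.15 SE, adjusted p = 0.00128). Col4a2, a chain of the basement membrane network, had 91.1 and 64.7 FPKM at day 7, against 37.5 and 43.2 at day 1 (0.92 ± 0.18 SE, adjusted p = 0.00425), and its call was lost in 1 fit (adjusted p = 0.0538 without day 7 library 1).

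The matrix glycoproteins and crosslinkers held the most calls of the stromal lists, with 13 higher and 0 lower of 23 tested members and a median of 0.80. The counts were 11 higher and 0 lower under median-of-ratios scaling and 13 and 0 under quantile normalization, and 6 to 13 were higher when a library was left out. Eln, elastin, the core of elastic fibres, had 27.9 and 23.5 FPKM at day 7, against 1.21 and 8.81 at day 1 (2.51 ± 0.51 SE, adjusted p = 0.00581), with 1 day 1 library far below the other. Mfap4, an elastic fibre protein, had 35.3 and 28.1 FPKM at day 7, against 6.02 and 8.40 at day 1 (2.002 ± 0.30 SE, adjusted p = 0.000969). Cthrc1, a secreted protein of activated fibroblasts, had 19.6 and 21.5 FPKM at day 7, against 7.26 and 9.86 at day 1 (1.19 ± 0.24 SE, adjusted p = 0.00559). Postn, periostin, the matricellular protein of activated fibroblasts in neonatal and injured hearts, had 437 and 469.9 FPKM at day 7, against 184 and 276 at day 1 (1.00 ± 0.18 SE, adjusted p = 0.00263). In all 4 genes both day 7 libraries lay above both day 1 libraries. Postn was abundant already at day 1.

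Growth factor ligands and receptors gave 12 higher and 1 lower of 29 tested members, with a median of 0.45 and 7 to 12 higher when a library was left out. The counts were 11 higher and 2 lower under median-of-ratios scaling and 9 and 2 under quantile normalization. In the deposited values the lower member was Bmp10, described above. Transforming growth factor beta genes were among the higher ones. Tgfb1 (mm9 chr7:26472020-26490096), the isoform of immune cells and injured stroma, had 10.1 and 9.75 FPKM at day 7, against 3.02 and 4.04 at day 1 (1.28 ± 0.15 SE, adjusted p = 0.000238). Tgfb3, the isoform of developing mesenchyme, had 8.90 and 9.46 FPKM at day 7, against 3.63 and 3.75 at day 1 (1.12 ± 0.15 SE, adjusted p = 0.000468). Ltbp2, a microfibril protein of the latent TGF-beta binding protein family, had 1.58 and 1.53 FPKM at day 7, against 0.359 and 0.335 at day 1 (0.92 ± 0.15 SE, adjusted p = 0.00171). The groups did not overlap in any of the 3. Of all genes tested, 15.5% were called higher and 3.7% lower. The proteases and inhibitors of matrix split, with 5 higher and 3 lower of 16 tested members called and a median of 0.34. The counts were 4 higher and 3 lower under median-of-ratios scaling and 4 and 3 under quantile normalization, and 1 to 6 were higher when a library was left out. Mmp14, the membrane-bound collagenase that activates other metalloproteinases, had 36.4 and 30.5 FPKM at day 7, against 16.01 and 18.3 at day 1 (0.92 ± 0.17 SE, adjusted p = 0.00347). Mmp12, the macrophage elastase, had 3.29 and 4.25 FPKM at day 7, against 0.674 and 0.252 at day 1 (1.71 ± 0.28 SE, adjusted p = 0.00185). On the lower side stood Adamts1, a protease that cleaves versican and other proteoglycans, with 14.2 and 14.4 FPKM at day 7, against 30.5 and 27.8 at day 1 (-0.98 ± 0.12 SE, adjusted p = 0.000356). Timp1 was lower as well, with 5.18 and 3.98 FPKM at day 7, against 8.48 and 10.3 at day 1 (-0.90 ± 0.22 SE, adjusted p = 0.0142). Timp1 lost its call in 1 fit (adjusted p = 0.0926 without day 7 library 2).

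**Figure D3:**
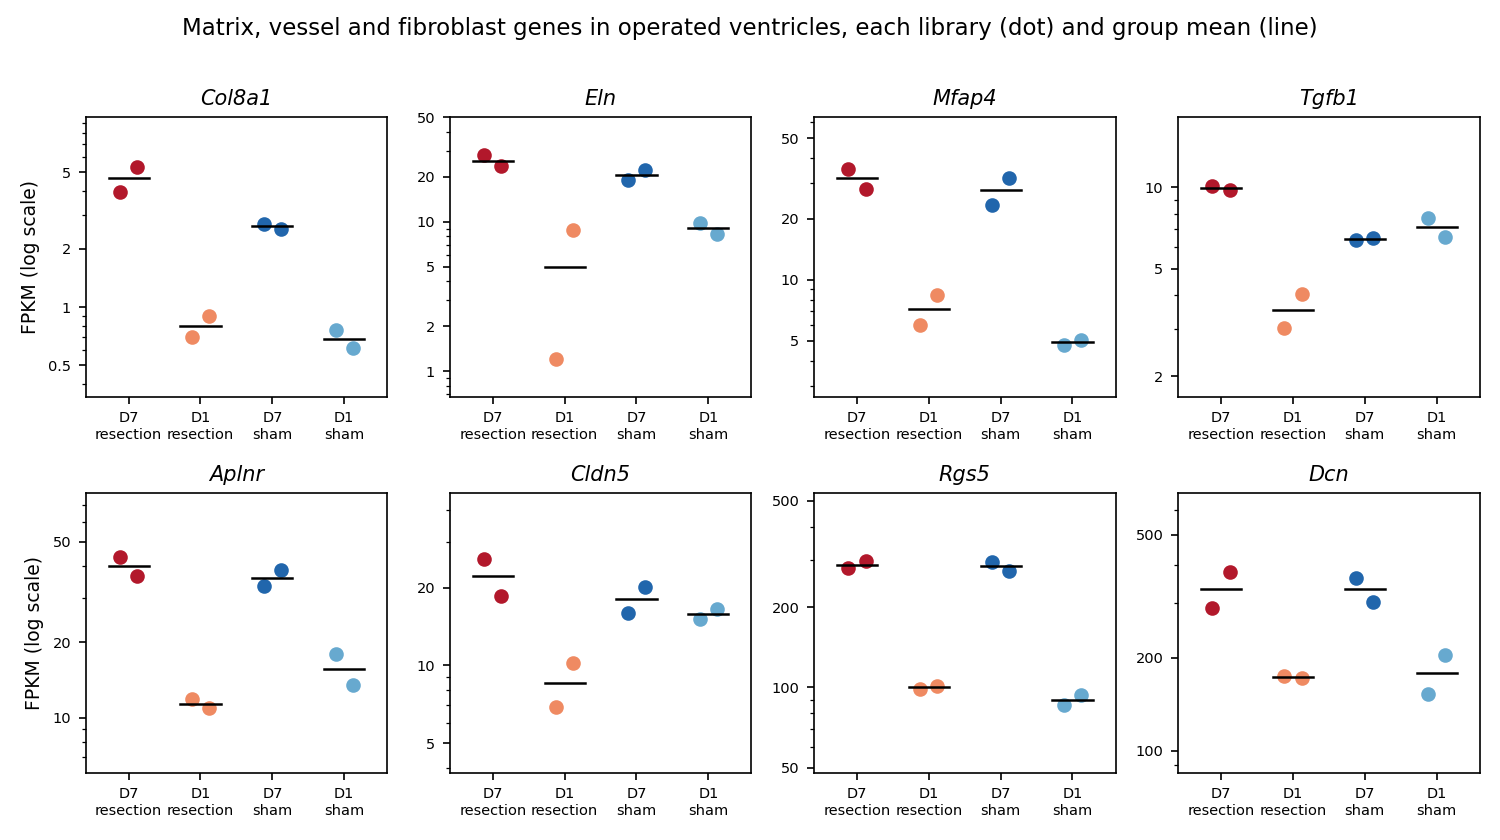
Levels of 8 matrix, vessel and fibroblast genes in FPKM on a log axis in the day 7 resection, day 1 resection, day 7 sham and day 1 sham libraries (2 dots each, line at the group mean). For every gene shown both day 7 resection libraries lay above both day 1 resection libraries; Rgs5 and Dcn showed a similar step between the sham groups, while Tgfb1 and Cldn5 did not.

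Vessel genes rose. All 12 endothelial markers tested were higher in both day 7 libraries than in both day 1 libraries, which held for 38.3% of all genes tested, and 11 of them were called, with a median of 0.86. The count of higher members was 9 and 9 under the other scalings and 6 to 11 when a library was left out. Aplnr (mm9 chr2:84976516-84980079), the apelin receptor of sprouting veins and capillaries, had 43.4 and 36.6 FPKM at day 7, against 11.8 and 10.9 at day 1 (1.72 ± 0.16 SE, adjusted p = 6.22e-05). Its ligand Apln, made by tip cells and hypoxic tissue, had 24.98 and 21.6 FPKM at day 7, against 6.88 and 10.2 at day 1 (1.37 ± 0.18 SE, adjusted p = 0.000438). Cldn5, the tight junction claudin of endothelium, had 25.8 and 18.6 FPKM at day 7, against 6.91 and 10.2 at day 1 (1.28 ± 0.20 SE, adjusted p = 0.00137). Egfl7, a secreted endothelial matrix protein, had 67.4 and 61.3 FPKM at day 7, against 21.5 and 40.0 at day 1 (1.10 ± 0.26 SE, adjusted p = 0.011), with its call lost in 2 of the fits without 1 library (at most adjusted p = 0.091 without day 1 library 1). Day 1 library 1 lay below day 1 library 2 for Apln, Cldn5 and Egfl7. The smooth muscle and pericyte list held 7 higher and 0 lower of 12 tested members, with a median of 0.59 and 4 to 8 higher when a library was left out. Under the other scalings 5 and 4 were higher. Rgs5, a regulator of G-protein signalling in pericytes, had 280.4 and 296 FPKM at day 7, against 98.6 and 101 at day 1 (1.52 ± 0.14 SE, adjusted p = 5.37e-05). Kcnj8, a subunit of the ATP-sensitive potassium channel of pericytes, had 14.4 and 17.1 FPKM at day 7, against 4.77 and 6.17 at day 1 (1.38 ± 0.15 SE, adjusted p = 0.00018). Pdgfrb, the receptor through which pericytes are recruited, had 13.6 and 11.7 FPKM at day 7, against 6.604 and 6.34 at day 1 (0.86 ± 0.14 SE, adjusted p = 0.00152). In these 3 pericyte genes the days did not overlap. Epicardial markers gave 2 higher and 0 lower of 10 tested members, with a median of -0.25; the counts were 1 higher and 1 lower under median-of-ratios scaling and 2 and 1 under quantile normalization.

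Macrophage genes did not all move one way. The recruited monocyte and macrophage list held 7 higher and 1 lower of 12 tested members called, with a median of 1.02; the counts were 7 higher and 1 lower under median-of-ratios scaling and 7 and 1 under quantile normalization, and 3 to 7 were higher when a library was left out. Lyz2 (mm9 chr10:116714389-116719377), lysozyme M, the general marker of mature myeloid cells, had 103 and 77.0 FPKM at day 7, against 15.3 and 13.2 at day 1, a difference of 2.57 ± 0.25 SE, adjusted p = 6.85e-05. Lyz1 is a near-identical neighbouring gene with which reads can be shared, so the level of Lyz2 alone is uncertain. Ms4a7, a membrane protein of macrophages, had 3.40 and 4.60 FPKM at day 7, against 0.326 and 0.395 at day 1 (1.87 ± 0.16 SE, adjusted p = 5.37e-05). Gpnmb, a glycoprotein of lipid-handling, phagocytic macrophages, had 3.46 and 3.74 FPKM at day 7, against 0.405 and 0.304 at day 1 (1.76 ± 0.20 SE, adjusted p = 0.000191). In all 3 both day 7 libraries lay several-fold above both day 1 libraries. The single lower member was Arg1, arginase 1 of alternatively activated early wound macrophages, with 0.504 and 0.332 FPKM at day 7, against 2.90 and 2.88 at day 1 (-1.46 ± 0.22 SE, adjusted p = 0.000974). The call of Lyz2 held in every fit without 1 library. Ms4a7, Gpnmb and Arg1 kept theirs in the fits that tested them. They were not tested without a library of the day with the higher values. Whether their calls rest on 1 such library cannot be decided. The summed level of the list was 229.6 to 256 FPKM at day 7 and 94.8 to 109 FPKM at day 1.

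The start regions of Lyz2, of Mmp12 and of the chemokine gene Ccl6 are shown because they carry, near the start, the core letters bound by the ETS-family factor PU.1 of the myeloid lineage. Each is 300 bases from RefSeq on build GRCm38.p6, 250 before and 50 after the annotated start, read 5′ to 3′ on the strand of the gene, with capitals marking AGGAAGT or its complement.
Lyz2: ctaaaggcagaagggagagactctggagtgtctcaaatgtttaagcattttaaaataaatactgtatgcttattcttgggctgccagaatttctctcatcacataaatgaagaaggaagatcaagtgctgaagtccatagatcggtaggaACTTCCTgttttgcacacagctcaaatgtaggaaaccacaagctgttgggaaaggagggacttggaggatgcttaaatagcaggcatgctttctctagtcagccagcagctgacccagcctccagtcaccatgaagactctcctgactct
Mmp12: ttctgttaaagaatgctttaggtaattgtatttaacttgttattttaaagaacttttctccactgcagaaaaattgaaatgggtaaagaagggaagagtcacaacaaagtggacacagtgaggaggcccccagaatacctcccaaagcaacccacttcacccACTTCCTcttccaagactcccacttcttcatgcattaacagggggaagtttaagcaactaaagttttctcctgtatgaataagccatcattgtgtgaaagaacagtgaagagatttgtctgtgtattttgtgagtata
Ccl6: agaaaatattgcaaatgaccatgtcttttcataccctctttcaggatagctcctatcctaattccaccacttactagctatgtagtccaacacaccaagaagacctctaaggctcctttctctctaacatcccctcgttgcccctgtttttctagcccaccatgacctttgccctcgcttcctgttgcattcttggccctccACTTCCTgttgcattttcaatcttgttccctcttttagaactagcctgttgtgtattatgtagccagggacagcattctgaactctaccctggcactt
The windows lie at chr10:117282223-117282522 on the minus strand, chr9:7344147-7344446 on the plus strand and chr11:83593038-83593337 on the minus strand. The match begins 100, 88 and 48 bases before the start in Lyz2, Mmp12 and Ccl6, and in all 3 it reads as ACTTCCT on the strand shown. Searched on both strands, the 7 letters stand in 9.35% of 32851 RefSeq promoters of this length and, counted by gene, in 10.7% of 27025 genes. Of the 19 members called higher at day 7 in the macrophage, chemokine and protease lists, 15 had a promoter in the table and 5 of these a match, namely Lyz2, Mmp12, Folr2, Ly6c1 and Ly6c2, the last 3 named for their match only. A match is a string of letters and was not tested as a binding site.

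Resident macrophage markers gave 3 higher and 0 lower of 10 tested members, with a median of 0.55. Under the other scalings 1 and 0 were higher. Emr1, the gene of the F4/80 antigen, had 5.32 and 4.40 FPKM at day 7, against 2.62 and 2.84 at day 1 (0.65 ± 0.21 SE, adjusted p = 0.0433). Cx3cr1, the fractalkine receptor of resident macrophages, had 4.40 and 4.17 FPKM at day 7, against 2.998 and 2.01 at day 1 (0.61 ± 0.18 SE, adjusted p = 0.0314). The calls of both were lost under both other scalings and when single libraries were left out: Emr1 (in 4 of 4 fits, at most adjusted p = 0.221 without day 7 library 1) and Cx3cr1 (in 3 of 4 fits, at most adjusted p = 0.145 without day 7 library 1). No neutrophil marker of 4 tested was called (limma; 1 at an unadjusted p under 0.05, and 0 called under both other scalings), and the summed level of all 12 listed neutrophil genes was 36.7 to 42.1 FPKM at day 7 and 31.5 to 50.7 FPKM at day 1. Ngp, a granule protein of neutrophil precursors, had 4.03 and 2.20 FPKM at day 7 and 2.21 and 2.36 at day 1 and was not called (0.29 ± 0.31 SE, adjusted p = 0.552). Macrophage genes of injured tissue outside these marker lists, Spp1 and Lgals3, which encodes galectin-3, were not called either. Spp1 had 16.2 and 20.9 FPKM at day 7 and 11.9 and 8.27 at day 1 (0.83 ± 0.33 SE, adjusted p = 0.0997). Lgals3 had 5.95 and 6.02 FPKM at day 7 and 4.18 and 1.86 at day 1 (0.86 ± 0.30 SE, adjusted p = 0.0643). Both had both day 7 libraries above both day 1 libraries.

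**Figure D4:**
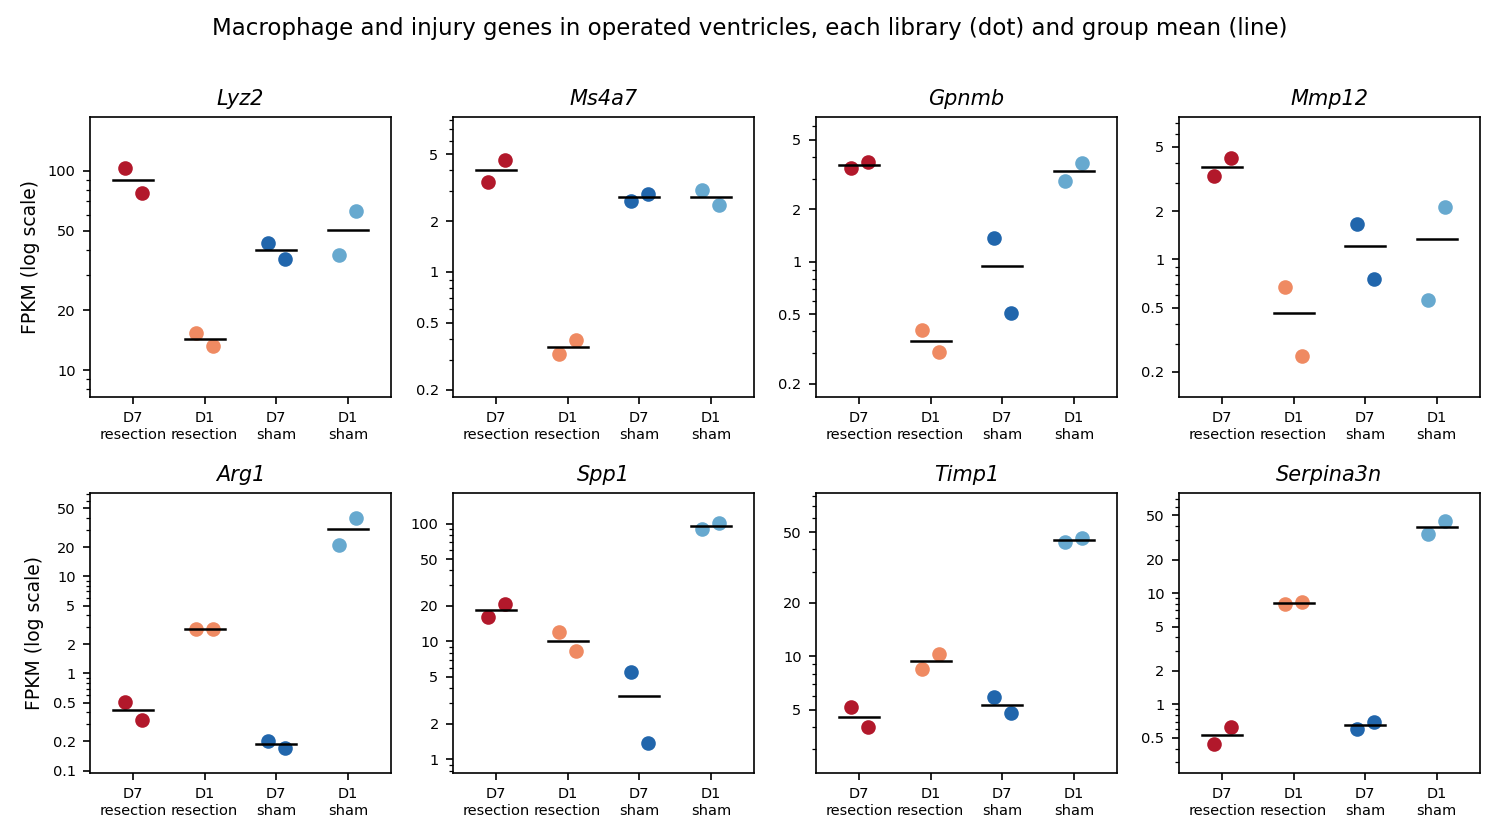
Levels of 8 macrophage and injury genes in FPKM on a log axis in the day 7 resection, day 1 resection, day 7 sham and day 1 sham libraries (2 dots each, line at the group mean). Lyz2, Ms4a7, Gpnmb and Mmp12 had their lowest group mean at day 1 after resection, whereas Arg1, Spp1, Timp1 and Serpina3n were highest in the day 1 sham libraries.

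Chemokine and antigen presentation genes called in the deposited values were all higher at day 7. Of those described, Cxcl13, Cd74 and H2-Aa reached the 1 FPKM of the filter at day 7 alone. They could enter the test only as higher ones, so the direction of these calls rests in part on the filter. Of the chemokine and cytokine list 4 higher and 0 lower of 11 tested members were called, with a median of 0.69, with 4 and 2 higher under the other scalings and 0 to 4 when a library was left out. Cxcl13, the B-cell attracting chemokine of macrophages and stroma, had 6.78 and 3.004 FPKM at day 7, against 0.0456 and 0 at day 1 (2.45 ± 0.25 SE, adjusted p = 0.000109). It was listed at 0 in 1 day 1 library, so no fold is given. Cxcl12, the ligand of Cxcr4 made by stroma and vessels, had 32.3 and 29.6 FPKM at day 7, against 20.6 and 16.8 at day 1 (0.70 ± 0.15 SE, adjusted p = 0.00873). Csf1, the growth factor of macrophages, had 5.98 and 6.69 FPKM at day 7, against 3.53 and 3.43 at day 1 (0.71 ± 0.17 SE, adjusted p = 0.0143). Both calls were lost without single libraries: Cxcl12 (in 1 of 4 fits, at most adjusted p = 0.0712 without day 7 library 1) and Csf1 (in 3 of 4 fits, at most adjusted p = 0.0785 without day 7 library 2). Ccl6 and Ccl9, macrophage chemokines of the mouse, were not called. Ccl6 had 22.1 and 13.7 FPKM at day 7 and 7.70 and 10.4 at day 1 (0.89 ± 0.35 SE, adjusted p = 0.0936). Ccl9 had 5.94 and 4.81 FPKM at day 7 and 2.21 and 3.24 at day 1 (0.78 ± 0.37 SE, adjusted p = 0.153).

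Complement and antigen presentation genes gave 11 higher and 0 lower of 18 tested members, with a median of 0.88; the counts were 7 higher and 1 lower under median-of-ratios scaling and 6 and 0 under quantile normalization, and 1 to 10 were higher when a library was left out. Cd74, the invariant chain of class II, had 6.47 and 3.53 FPKM at day 7, against 0.408 and 0.998 at day 1 (1.79 ± 0.42 SE, adjusted p = 0.0118). H2-Aa, a class II chain, had 1.67 and 1.49 FPKM at day 7 and was listed at 0 in both day 1 libraries (adjusted p = 0.0183). H2-K1, a class I heavy chain, had 28.7 and 19.4 FPKM at day 7, against 6.52 and 5.47 at day 1 (1.82 ± 0.50 SE, adjusted p = 0.025). The H2 genes are near-identical family members, so the share of reads given to each is uncertain. Leaving out 1 library ended the calls of Cd74 (in 1 of 2 fits, at most adjusted p = 0.0787 without day 1 library 1), H2-Aa (in 1 of 2 fits, at most adjusted p = 0.0705 without day 1 library 1) and H2-K1 (in 4 of 4 fits, at most adjusted p = 0.156 without day 7 library 1). Interferon-induced genes gave 5 higher and 0 lower of 12 tested members, with a median of 0.49 and 4 and 3 higher under the other scalings. Irf1, the interferon-gamma induced transcription factor, had 10.6 and 7.07 FPKM at day 7, against 2.76 and 3.50 at day 1 (1.23 ± 0.19 SE, adjusted p = 0.00122), and both of its day 7 values lay above both day 1 values.

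Few acute phase genes passed the test in the resected course, with 1 higher and 2 lower of 17 tested members; the counts were 0 higher and 2 lower under median-of-ratios scaling and 0 and 2 under quantile normalization. With a median of 0.18, the list lay close to the 0.15 of all genes. The 2 lower ones were Timp1 and Serpina3n. Serpina3n (mm9 chr12:105644938-105652539), a serine protease inhibitor of the acute phase, had 0.436 and 0.623 FPKM at day 7, against 8.02 and 8.38 at day 1 (-2.59 ± 0.24 SE, adjusted p = 6.22e-05), the steepest fall in the list. The higher one was Anxa1, annexin A1, an anti-inflammatory phospholipid-binding protein, with 55.2 and 61.4 FPKM at day 7, against 34.8 and 41.2 at day 1 (0.61 ± 0.20 SE, adjusted p = 0.0475), a call that was lost under both other scalings and in 3 fits without 1 library (at most adjusted p = 0.213 without day 1 library 1). Of the gp130, IL-1 and IL-4/IL-13 signalling genes none of 13 tested was called (limma; 1 at an unadjusted p under 0.05, and 0 called under both other scalings).

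Immediate early genes split in direction, where 15.5% of all genes tested were called higher and 3.7% lower. The list held 5 higher and 3 lower of 17 tested members, with a median of 0.14. The counts were 4 higher and 4 lower under median-of-ratios scaling and 3 and 3 under quantile normalization, and 1 to 4 were higher when a library was left out. Nr4a1 and Nr4a3, orphan nuclear receptors induced within hours by stress and catecholamines, were lower at day 7. Nr4a1 had 2.94 and 2.04 FPKM at day 7, against 13.7 and 14.4 at day 1 (-2.12 ± 0.32 SE, adjusted p = 0.000924). Nr4a3 had 0.550 and 0.672 FPKM at day 7, against 3.06 and 3.12 at day 1 (-1.35 ± 0.16 SE, adjusted p = 0.000257). Fos, a subunit of the factor AP-1, had 1.96 and 4.37 FPKM at day 7, against 9.33 and 8.82 at day 1 (-1.34 ± 0.27 SE, adjusted p = 0.00541), a call lost in 1 fit (adjusted p = 0.0614 without day 7 library 1). Jun, the other AP-1 partner, was higher instead, with 22.1 and 23.4 FPKM at day 7, against 13.5 and 12.7 at day 1 (0.75 ± 0.18 SE, adjusted p = 0.012). Klf2, the flow-induced factor of endothelium, had 17.9 and 21.8 FPKM at day 7, against 12.8 and 6.99 at day 1 (0.98 ± 0.20 SE, adjusted p = 0.00618). Ier3, an early stress response gene, had 16.2 and 17.0 FPKM at day 7, against 8.63 and 11.2 at day 1 (0.70 ± 0.15 SE, adjusted p = 0.00843). Each of these 3 calls was lost without single libraries: Jun (in 2 of 4 fits, at most adjusted p = 0.0632 without day 7 library 2), Klf2 (in 1 of 4 fits, at most adjusted p = 0.0501 without day 7 library 2) and Ier3 (in 1 of 4 fits, at most adjusted p = 0.0666 without day 1 library 1).

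Some of the largest differences lay outside the pathways above. Mapt, which encodes the microtubule protein tau, had 9.53 and 9.30 FPKM at day 7, against 0.366 and 1.10 at day 1 (2.62 ± 0.21 SE, adjusted p = 3.42e-05). Tuba8, an alpha-tubulin of muscle and other tissues, had 15.1 and 13.1 FPKM at day 7, against 1.24 and 3.06 at day 1 (2.32 ± 0.33 SE, adjusted p = 0.000707). Both genes had groups far apart and stood higher in unoperated P7 than P0 ventricle. Mapt held 0.948 and 0.726 FPKM at P0 and 13.002 and 12.7 FPKM at P7, and Tuba8 1.36 and 0.912 FPKM at P0 and 22.6 and 28.6 FPKM at P7. Hif3a, a splice-rich member of the hypoxia-inducible factor family, had 0.348 and 0.598 FPKM at day 7, against 3.43 and 4.10 at day 1 (-1.69 ± 0.16 SE, adjusted p = 6.57e-05). Epas1, which encodes HIF-2 alpha of endothelium, was higher, with 44.5 and 49.5 FPKM at day 7, against 30.7 and 27.4 at day 1 (0.68 ± 0.12 SE, adjusted p = 0.00289). Atf5, a stress-regulated transcription factor, had 22.2 and 23.2 FPKM at day 7, against 6.32 and 10.4 at day 1 (1.38 ± 0.18 SE, adjusted p = 0.000482). Rpl26, a ribosomal protein gene with many processed copies that can share its reads, had 0.199 and 1.71 FPKM at day 7, against 39.9 and 15.7 at day 1 (-3.86 ± 0.70 SE, adjusted p = 0.00303), and its level is uncertain for that reason. The short non-coding models need the same care. The model mmu-mir-689-2 had 25.7 and 19.4 FPKM at day 7 and was listed at 0 in both day 1 libraries (adjusted p = 1.91e-08). The model mmu-mir-703 had 455 and 916 FPKM at day 7, with day 1 library 1 at nearly 0 and library 2 at 115 FPKM (adjusted p = 0.0148). Of the mitochondrial genome, mt-Atp6, a subunit of ATP synthase, had 40.9 and 69.6 FPKM at day 7, against 2.21 and 25.4 at day 1 (2.56 ± 0.65 SE, adjusted p = 0.0173), where day 1 library 1 again stood lowest. Leaving out 1 library ended the calls of mmu-mir-703 (in 2 of 4 fits, at most adjusted p = 0.0776 without day 7 library 2) and mt-Atp6 (in 2 of 4 fits, at most adjusted p = 0.0999 without day 7 library 2).

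Markers of tissues other than ventricle also differed between the days. Of the lung list 9 higher and 0 lower of 11 tested members were called, with a median of 1.47, with 9 and 8 higher under the other scalings and 0 to 8 when a library was left out. Sftpc differed by 6.48 ± 0.74 SE, adjusted p = 0.000222. Like Sftpa1, Ager, Scgb1a1 and Lyz1 below, it reached the 1 FPKM of the filter at day 7 alone. Such genes could enter the test only as higher ones, and they drop out of it without a day 7 library. The direction and number of lung calls thus rest in part on the filter. In the sham course 4 lung genes were tested. Sftpa1, surfactant protein A, had 8.21 and 5.28 FPKM at day 7, against 0 and 0.140 at day 1 (2.83 ± 0.28 SE, adjusted p = 7.7e-05). Ager, of flat alveolar cells, had 11.2 and 4.92 FPKM at day 7, against 0.131 and 0.620 at day 1 (2.65 ± 0.39 SE, adjusted p = 0.000823). Scgb1a1, of airway club cells, had 36.6 and 1.99 FPKM at day 7, against 0 and 0.426 at day 1, high in 1 day 7 library only (3.15 ± 0.99 SE, adjusted p = 0.0413). Its call was lost in both fits that tested it without 1 library (at most adjusted p = 0.156 without day 1 library 1). Lyz1, the lysozyme of alveolar and intestinal secretory cells, had 8.39 and 4.92 FPKM at day 7, against 0.214 and 0.112 at day 1 (2.68 ± 0.25 SE, adjusted p = 6.22e-05). Among the resected libraries, those with more Lyz2 are thus also those with lung transcripts. The summed level of the 15 lung genes was 671 to 717 FPKM at day 7 and 242 to 496 FPKM at day 1, with 3 of them listed at 0 at day 1; most of that sum is Hopx, which the heart also expresses and which is named here after its values were seen. The day 7 sham libraries held 1.99 and 23.5 FPKM of Sftpc, and library 2, with more Sftpc, held less Lyz2 than library 1. The part of lung tissue in the macrophage, vessel and antigen presentation results was not tested.

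Blood and skeletal muscle genes were measured as well. Hbb-b2, an adult beta-globin, had 1593 and 1585 FPKM at day 7, against 381 and 512 at day 1 (1.84 ± 0.34 SE, adjusted p = 0.00347), within a family of near-identical globins, and the erythroid list gave 3 higher and 0 lower of 6 tested members, with 3 and 3 higher under the other scalings. The sham groups held 1696 and 1213 FPKM at day 7 and 519 and 1467 FPKM at day 1. Mylpf, a fast skeletal light chain, had 3.80 and 14.4 FPKM at day 7, against 1.03 and 1.57 at day 1 (1.91 ± 0.42 SE, adjusted p = 0.00829), high in 1 day 7 library, and lost its call in 2 fits (at most adjusted p = 0.0532 without day 1 library 1). The skeletal muscle list gave 2 higher and 0 lower of 4 tested members and the atrial list 3 higher and 3 lower of 11. The atrial counts were 2 higher and 4 lower under median-of-ratios scaling and 1 and 3 under quantile normalization, and 1 and 1 skeletal muscle genes were higher under these scalings. Xist, the RNA of the inactive X chromosome, was called lower (-3.74 ± 0.94 SE, adjusted p = 0.0163), with day 7 library 2 near 0 and the other 3 libraries well above it. Of the 5 sex-linked genes tested, the other 4 were higher in both day 7 libraries than in both day 1 libraries. None of them was called, and the list median was 2.23 (log2). The part of the animals' sex in the results was not tested.

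The resected course was then set beside the sham course, to ask which genes took another path where tissue had been removed. In sham-operated ventricle 12479 genes were tested, 627 were higher at day 7 (5.02%) and 1733 were lower (13.9%), with a median of -0.17. Of the 12109 genes tested in both courses, 445 were higher in both courses, 266 lower in both, 81 higher after resection and lower after sham, and 2 the reverse. The difference between the courses was itself tested in the same model: 842 genes had a higher value in the resected course (6.78% of 12425) and 37 a lower one (0.298%), with a median of 0.30. The share of higher calls, 95.8%, depended on the scaling: it was 63.1% under median-of-ratios scaling and 67.7% under quantile normalization. There were 205 higher and 120 lower genes under median-of-ratios scaling and 136 and 65 under quantile normalization, while 134 and 33 were called under all 3. With the 8 operated libraries alone 50 genes were called in all. The total was 166 without day 7 resection library 1, 467 without day 1 resection library 1, 2688 without day 1 resection library 2, 324 and 502 without day 7 sham library 1 or 2, and 233 without day 1 sham library 2. Of the 842, 731 had a positive estimate after resection and a negative one after sham. These genes were chosen for a positive difference of courses, which favours such signs. So do the medians of 0.15 after resection and -0.17 after sham in the deposited values. The count is therefore not separate evidence of opposite paths.

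Immune and injury lists held many of these genes. Of the acute phase list 11 of 17 tested members had a higher course in resected than in sham hearts, of the recruited monocyte and macrophage list 10 of 12, of the chemokine list 6 of 11 and of the lung list 7 of 11, with none lower. Their medians were 1.96, 2.06, 2.20 and 1.76 (log2) against 0.30 for all genes. The filter for this test used the resected libraries alone. Genes that reached 1 FPKM only at day 7 after resection thus entered the test because of that rise. These include lung genes, Ms4a7 and Gpnmb of the macrophage list and Cxcl13 of the chemokine list. The counts of these 3 lists rest in part on the filter. Under median-of-ratios scaling and quantile normalization the counts were 9 and 9 in the acute phase list, 9 and 8 in the macrophage list, 6 and 6 in the chemokine list and 6 and 4 in the lung list. Over the fits that left out 1 library they ran 8 to 12, 5 to 11, 5 to 9 and 0 to 9 in the same order. By contrast no member of the fibroblast, sarcomere, mitosis or DNA replication list was called in the difference in the deposited values, and the members at an unadjusted p under 0.05 in the same test (limma) were 0, 2, 1 and 3. Under median-of-ratios scaling 2 sarcomere genes were called lower in the difference. Without day 1 resection library 2, 2 genes each of the sarcomere, mitosis and DNA replication lists were called higher, and without day 1 resection library 1, 1 sarcomere gene lower. Fibroblast markers in the sham course were 7 higher and 1 lower of 11 tested.

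Among the genes that differed in the higher direction, some fell steeply in the sham course and did not pass the test in the resected one. Spp1 had 5.47 and 1.38 FPKM in the day 7 sham libraries and 89.8 and 101 in the day 1 sham libraries, and its courses differed by 5.44 ± 0.47 SE, adjusted p = 0.000154. Lgals3 had 2.503 and 1.59 FPKM in the day 7 sham libraries and 24.2 and 42.5 in the day 1 sham libraries (difference of courses 4.32 ± 0.43 SE, adjusted p = 0.000363). Ccl6 had 8.37 and 5.34 FPKM in the day 7 sham libraries and 71.0 and 135 in the day 1 sham libraries (4.57 ± 0.50 SE, adjusted p = 0.000668). In these 3 genes the day 1 sham libraries alone stood above all the others. Arg1, Serpina3n and Timp1 fell in both courses and more steeply after sham. Arg1 had 0.201 and 0.171 FPKM in the day 7 sham libraries and 21.0 and 40.0 in the day 1 sham libraries (3.20 ± 0.31 SE, adjusted p = 0.000308). Serpina3n had 0.605 and 0.691 FPKM in the day 7 sham libraries and 33.9 and 44.2 in the day 1 sham libraries (1.999 ± 0.34 SE, adjusted p = 0.00686). Timp1 had 5.90 and 4.80 FPKM in the day 7 sham libraries and 43.8 and 46.0 in the day 1 sham libraries (1.96 ± 0.31 SE, adjusted p = 0.0052). Other genes rose in the resected course and did not pass the test in the sham course. Lyz2 had 43.4 and 36.2 FPKM in the day 7 sham libraries and 37.9 and 62.5 in the day 1 sham libraries, with a difference of courses of 2.86 ± 0.35 SE, adjusted p = 0.00166. Ms4a7 had 2.64 and 2.91 FPKM in the day 7 sham libraries and 3.07 and 2.51 in the day 1 sham libraries (1.87 ± 0.23 SE, adjusted p = 0.00167). Tgfb1 had 6.37 and 6.48 FPKM in the day 7 sham libraries and 7.72 and 6.56 in the day 1 sham libraries (1.41 ± 0.21 SE, adjusted p = 0.00406). In these 3 genes the day 1 resection libraries stood below all 6 others and the day 7 resection libraries above them.

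A few genes differed in the lower direction. Kcnip2 had 54.5 and 51.3 FPKM in the day 7 sham libraries and 22.0 and 12.1 in the day 1 sham libraries, and the difference of courses was -1.48 ± 0.34 SE, adjusted p = 0.0263. Ckmt2 rose in both courses and less after resection, with 514 and 498 FPKM in the day 7 sham libraries and 89.8 and 84.0 in the day 1 sham libraries (-1.02 ± 0.24 SE, adjusted p = 0.0292). Apln did likewise, with 26.5 and 23.0 FPKM in the day 7 sham libraries and 3.56 and 3.41 in the day 1 sham libraries (-1.15 ± 0.25 SE, adjusted p = 0.0207). For Kcnip2, Ckmt2 and Apln the day 1 values differed between the operations more than the day 7 values did. Nr4a3 had 0.984 and 1.25 FPKM in the day 7 sham libraries and 0.884 and 1.15 in the day 1 sham libraries (-1.41 ± 0.23 SE, adjusted p = 0.00538). Rnaset2b, one of a pair of near-identical ribonuclease genes whose reads can be shared, had 47.0 and 44.1 FPKM at day 7 and 74.3 and 62.5 at day 1 after resection. It had 56.7 and 49.9 FPKM in the day 7 sham libraries and 30.2 and 30.7 in the day 1 sham libraries (-1.35 ± 0.22 SE, adjusted p = 0.00583). Leaving out 1 library ended the calls of Kcnip2 (in 5 of 8 fits, at most adjusted p = 0.0977 without day 7 resection library 1), Ckmt2 (in 5 of 8 fits, at most adjusted p = 0.0927 without day 1 sham library 2) and Apln (in 4 of 8 fits, at most adjusted p = 0.0758 without day 7 sham library 1). With the 8 operated libraries alone Rnaset2b kept its call, and Kcnip2, Ckmt2, Apln, Nr4a3 and Tgfb1 lost theirs.

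**Figure D5:**
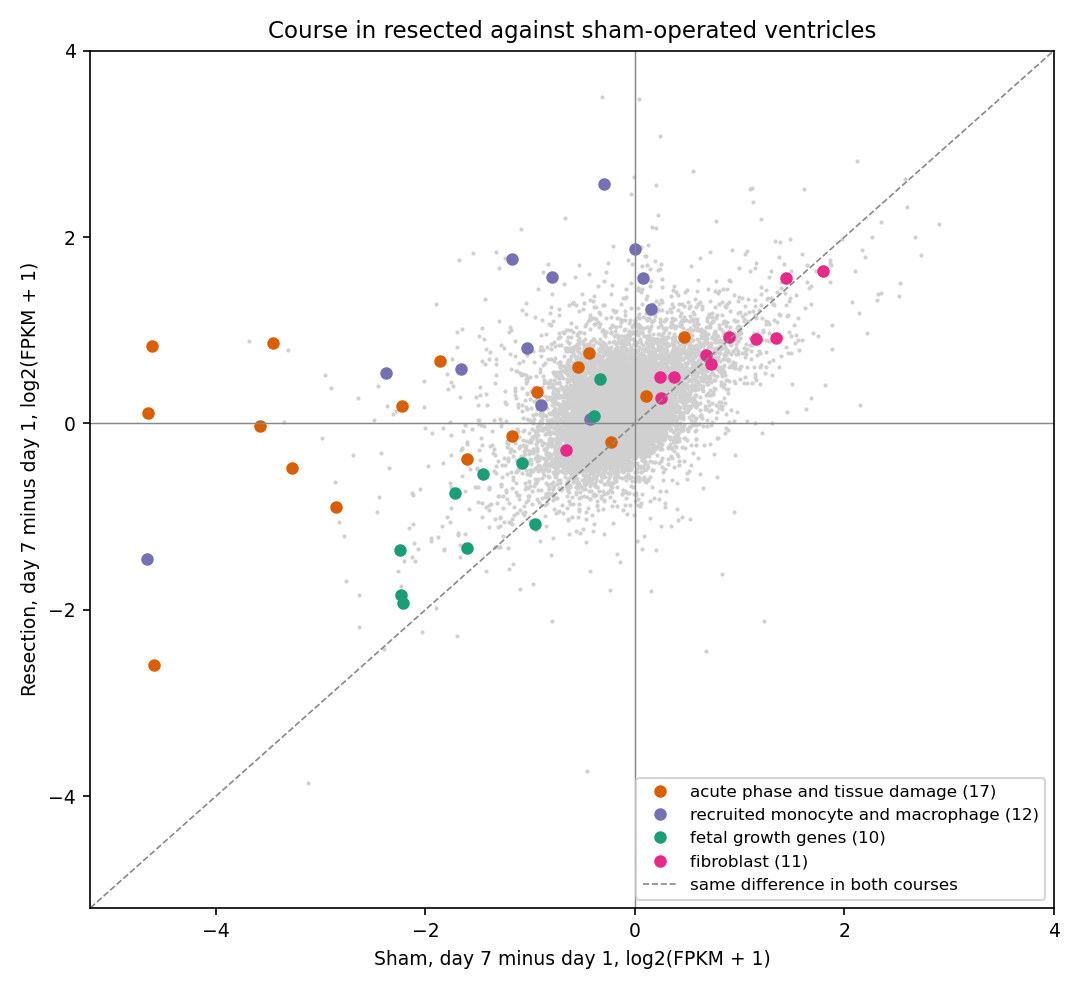
Each of 12109 genes tested in both courses is placed by its day 7 minus day 1 difference in log2(FPKM + 1) after sham (horizontal) and after resection (vertical); coloured points are 4 gene lists, the dashed line marks equal differences, and 4 genes lie outside the axes. Most fibroblast markers lie near the dashed line, fetal growth genes lie low on both axes, and many acute phase and recruited macrophage genes lie above the line, far to the left.

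Growth and stromal genes were among those called in both courses. Tnni1 had 85.8 and 149 FPKM in the day 7 sham libraries and 599 and 459.9 in the day 1 sham libraries. Plagl1 had 13.2 and 14.7 FPKM in the day 7 sham libraries and 70.6 and 66.2 in the day 1 sham libraries. Hey2 had 4.16 and 5.44 FPKM in the day 7 sham libraries and 30.1 and 22.8 in the day 1 sham libraries. All 3 were lower at day 7 after either operation. Their differences of courses were 0.73 (adjusted p = 0.231), 0.29 (adjusted p = 0.407) and 0.49 (adjusted p = 0.237), none past the threshold. Rgs5 had 295 and 273 FPKM in the day 7 sham libraries and 86.4 and 93.8 in the day 1 sham libraries (-0.13 ± 0.19 SE, adjusted p = 0.685). Dcn had 363 and 302 FPKM in the day 7 sham libraries and 153 and 205 in the day 1 sham libraries (0.03 ± 0.23 SE, adjusted p = 0.944). Xirp2 had 69.7 and 58.1 FPKM in the day 7 sham libraries and 13.02 and 14.7 in the day 1 sham libraries (0.69 ± 0.46 SE, adjusted p = 0.339). These 3 were higher at day 7 after either operation. A difference that misses the threshold does not show that the courses were equal. In the difference of courses 2 of 11 fetal growth, 3 of 17 collagen and 3 of 23 matrix genes were called higher. So were 6 of 16 protease and 6 of 29 growth factor genes, with none lower and 6.78% higher over all genes. Under median-of-ratios scaling the counts were 0, 1, 3, 3 and 3 in that order, with 1 collagen gene lower. Under quantile normalization they were 0, 0, 3, 1 and 2.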

How the data were processed

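Total RNA of ventricular myocardium was extracted with Trizol and sequenced, per the labels, on either an Illumina GA-2 or a Hi-Seq; which machine read which library is not given. The authors deposited FPKM values, 1 column for each of 36 libraries. The submitters' processing notes name Bowtie 0.12.7 and TopHat 1.3.2, then Cufflinks 1.2.1 together with a Cuffdiff of unstated version, and mouse build mm9; the annotation is not given in the sources used here. Low values did not form whole multiples of a read (at most 1.01% of genes shared a ratio), so depth remains unknown and counting intervals cannot be had. The operated ventricle libraries had 11779 to 12475 gene models at 1 FPKM or more.

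Values were taken as log2(FPKM + 1), with a pseudocount of 1. The 16 ventricle libraries in 8 groups were fitted as group means in limma 3.58.1 (R 4.3.3), with an expression-dependent variance prior, which leaves 8 residual degrees of freedom. Genes with at least 1 FPKM in at least 2 of the 4 libraries of a course were tested, two-sided. A call needed an adjusted p (Benjamini-Hochberg over all genes tested) under 0.05. The contrasts were day 7 minus day 1 after resection, the same after sham, and the difference between both. The fit was tested on data simulated with an equal spread in all groups. This does not cover the wider spread of the day 1 resection pair. Alternatives were a pseudocount of 0.1, no filter, a 2-fold minimum, quantile normalization, median-of-ratios scaling, a block for replicate number, all 36 libraries or the compared groups alone in the fit, no variance trend, and leaving out each replicate. Single values of 0 in genes of at least 20 FPKM elsewhere were set to missing as one more. Fits on the 8 operated libraries and without the day 1 sham libraries were added after seeing the data.

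The members, the 25 pathway and 18 marker lists and the tests were chosen with earlier results of these data known. Lists held 746 entries, of which 702 were in the table. Named genes were chosen by a rule. It took the 12 largest increases and 12 largest decreases among called genes, provided that replicates did not overlap and 1 group averaged at least 5 FPKM, leaving out unnamed models. It took 6 each way for the difference, up to 3 called members per list and direction, or at most 2 with the smallest p where none was called, and a fixed set of 14. The text gives a selection. Sequences are from RefSeq, build GRCm38.p6. Figures were drawn with Matplotlib 3.10.9 under Python 3.11.15. Samples of cells differentiated from embryonic stem cells, named in the series' design, were not analysed here.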

Additional observations from a re-analysis of the deposited data

Results flagged for a closer look

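The day 7 against day 1 difference after resection differed from that after sham, by the test of the difference itself (limma, adjusted p under 0.05), in 879 genes, and 33 of the named genes are among them. For each the value is the resected minus the sham course on the log2(FPKM + 1) scale. In the genes of macrophages and of injury it was 5.44 for Spp1, 4.57 for Ccl6, 4.32 for Lgals3, 4.09 for Ccl9, 3.20 for Arg1, 2.94 for Gpnmb, 2.91 for Cxcl13, 2.86 for Lyz2, 1.999 for Serpina3n, 1.96 for Timp1, 1.96 for Ngp, 1.87 for Ms4a7, 1.74 for Mmp12, 1.301 for Emr1 and 1.15 for Anxa1. Lung genes differed by 4.51 for Sftpc, 2.66 for Ager, 2.48 for Sftpa1 and 2.46 for Lyz1. Among signalling, matrix and stress genes it was 1.41 for Tgfb1, 1.23 for Ltbp2, 1.01 for Mmp14, 1.11 for Cldn5, 1.22 for Ier3, 1.06 for Hif3a, 0.96 for Atf5 and 1.49 for Nkx2-5. The value for mmu-mir-689-2, listed at 0 in both day 1 resection libraries, was 4.63. Negative values were found for Kcnip2 (-1.48), Nr4a3 (-1.41), Rnaset2b (-1.35), Apln (-1.15) and Ckmt2 (-1.02). With the 8 operated libraries alone in the fit 13 of the 33 calls held, those of Spp1, Ccl6, Ccl9, Lgals3, Arg1, Gpnmb, Cxcl13, Lyz2, Serpina3n, Timp1, Ms4a7, Rnaset2b and mmu-mir-689-2. Of the 33 calls 8 were lost under median-of-ratios scaling and 10 under quantile normalization. On leaving out 1 library, calls were lost for Atf5 (in 7 of 8 fits, at most adjusted p = 0.125 without day 7 resection library 1), Mmp14 (in 6 of 8 fits, at most adjusted p = 0.124 without day 7 resection library 1), Anxa1 (in 5 of 8 fits, at most adjusted p = 0.0991 without day 1 sham library 2), Cldn5 (in 5 of 8 fits, at most adjusted p = 0.155 without day 7 resection library 1), Ckmt2 (in 5 of 8 fits, at most adjusted p = 0.0927 without day 1 sham library 2), Kcnip2 (in 5 of 8 fits, at most adjusted p = 0.0977 without day 7 resection library 1), Apln (in 4 of 8 fits, at most adjusted p = 0.0758 without day 7 sham library 1), Emr1 (in 4 of 8 fits, at most adjusted p = 0.104 without day 7 resection library 1), Ngp (in 4 of 8 fits, at most adjusted p = 0.111 without day 7 resection library 1), Sftpc (in 3 of 6 fits, at most adjusted p = 0.0973 without day 1 sham library 2), Mmp12 (in 2 of 6 fits, at most adjusted p = 0.0804 without day 1 sham library 2) and Hif3a (in 2 of 6 fits, at most adjusted p = 0.0628 without day 7 sham library 1). The others held in each such fit that tested them. Of these, Ager, Arg1, Cxcl13, Gpnmb, Ltbp2, Lyz1, mmu-mir-689-2, Ms4a7, Nr4a3, Serpina3n and Sftpa1 were not tested without a resected library of the day with the higher values. Whether their calls rest on 1 such library cannot be decided.

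For Spp1, Timp1, Serpina3n and Arg1 the day 1 sham libraries held more transcript than the libraries labelled day 1 resection, with Spp1 at 11.9 and 8.27 FPKM in day 1 resection and 89.8 and 101 FPKM in day 1 sham libraries. Unoperated P0 ventricle held 0.543 and 0.550 FPKM. Whether these labels are right was not tested; if they were exchanged, every day 7 against day 1 value of either course would change. With the labels as given, 2368 genes were called in the resected course without the day 1 sham libraries in the fit, against 2388 with them.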

How the results depend on the processing

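The resected course had 2388 calls and the sham course 2360, with 879 for their difference. The counts stayed within 1.5 times of these with a pseudocount of 0.1, no filter, no variance trend and single zeros missing. With a 2-fold minimum they were 532, 552 and 522; with all 36 libraries in the fit 670, 843 and 234; with the compared groups alone 78, 1508 and 50; with the 8 operated libraries, chosen after seeing the data, 936, 1054 and 50. For the difference they were 325 under median-of-ratios scaling and 201 under quantile normalization. Leaving out each replicate gave 840 to 3515 for the resected course, 950 to 1317 for the sham course and 166 to 2688 for the difference. The lone sample of a group is then assumed to vary like the other groups. Of the 105 named genes in the resected course, 94 kept their call or its absence under median-of-ratios scaling and 95 under quantile normalization. Fewer did so when the libraries in the fit changed. The count was 79 with the 8 operated libraries, 55 with all 36 libraries and 36 with the compared groups alone. The sign turned for Tnni3 (-0.18 under median-of-ratios scaling, -0.17 under quantile normalization, -0.24 and 0.27 without day 7 resection replicate 1 or 2, -0.13 without day 1 resection replicate 1), Nppa (-0.29 and 0.88 without day 1 resection replicate 1 or 2), Kcnip2 (-0.0317 under median-of-ratios scaling), Ccnb1 (-0.298 and 0.17 without day 1 resection replicate 1 or 2) and Ngp (-0.0390 without day 7 resection replicate 1, 0.61 without day 7 resection replicate 2), none of them called; the cause was not tested. Blocking on the replicate number, 2299, 2318 and 787 genes were called, and the calls of Pola1 (adjusted p = 0.0566), Cdc20 (0.0516), Anxa1 (0.0599) and Scgb1a1 (0.0533) were lost in the resected course. The labels do not say that a number marks a shared source. Deviations of same-numbered libraries correlated at -0.10 between day 7 and day 1 resection and -0.07 between day 7 and day 1 sham, over 2 pairs each; over all pairs of the 8 groups they ran between -0.22 (day 7 resection with day 7 sham) and 0.33 (day 7 resection with day 1 sham). With 2 libraries a group and unknown depth, differences of low genes are the least certain.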

Other observations

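Stress programs not described above are given beside the 15.5% of all tested genes called higher and 3.7% called lower in the resected course. Of the hypoxia-inducible genes 5 higher and 1 lower of 15 tested were called, and their median was 0.44; the counts were 2 higher and 2 lower under median-of-ratios scaling and 2 and 1 under quantile normalization. The ATF4 and one-carbon list, genes of the amino acid stress response, gave 2 higher and 3 lower of 14 tested, with a median of -0.14; the counts were 1 higher and 4 lower under median-of-ratios scaling and 1 and 4 under quantile normalization. The NRF2 antioxidant list gave 2 higher and 1 lower of 13 tested, with a median of 0.29 and 1 and 1 higher under the other scalings. Its summed level was 416 to 421 FPKM at day 7 and 229.6 to 414 FPKM at day 1. Tubulin and actin genes of the cytoskeleton gave 3 higher and 1 lower of 20 tested, with 3 and 2 higher under the other scalings, and the CDK inhibitors 1 higher and 1 lower of 5 tested, with 0 and 0 higher under the other scalings.

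Minor cell types were close to the limit of detection. No mast cell, platelet, adipocyte or Schwann cell marker was called in the resected course (limma), of 4, 4, 2 and 2 tested; 1 mast cell, 1 platelet and 1 adipocyte gene had an unadjusted p under 0.05. Platelet genes summed to 13.3 to 14.2 FPKM at day 7 and 11.04 to 14.1 FPKM at day 1, mast cell genes to 9.34 to 13.6 FPKM and 7.33 to 10.8 FPKM, and T, B and NK cell genes to 3.01 to 3.45 FPKM and 1.64 to 2.94 FPKM. Of the cardiomyocyte markers 1 higher and 2 lower of 7 tested were called (1 higher and 3 lower under median-of-ratios scaling and 1 and 2 under quantile normalization), and of the sex-linked genes 0 higher and 1 lower of 5.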
